A study of Rattus norvegicus with 9 samples.

Results

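The Zbtb genes encode transcription factors that pair a BTB domain at one end of the protein with zinc fingers at the other. In the raw count table of this series, 39 genes of 37991 were annotated protein_coding and carried the symbol Zbtb followed by a number, and these 39 are described here. RNA was sequenced from the medial prefrontal cortex (mPFC) of Wistar Kyoto rats, an inbred strain studied for its passive, depression-like behaviour. The series concerns sustained antidepressant effects, and its 9 libraries form 3 groups of 3. The K4 group received K4, a compound known here only by its code name, through an intravenous cannula for 7 days. The Ketamine group received ketamine, an NMDA receptor antagonist, under the skin for 7 days. Both groups then went 7 days without treatment, and the Control group was left untreated. All libraries are labelled day 15. The labels give no dose, vehicle, sex or age and do not say whether Control rats carried a cannula. Route and compound therefore cannot be told apart between the K4 and Ketamine groups. Against the untreated Control, each drug cannot be told apart from the procedure of giving it. Separate animals per library are not stated, and p-values therefore measure only the spread between these libraries.

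In this family the zinc fingers read the DNA sequence, and the BTB domain lets the proteins pair with each other and recruit corepressors such as NCoR and Sin3 with their histone deacetylases. Many members act as repressors that fix a cell's lineage, best known from blood and immune cells. In the brain, mouse Zbtb20 is required for the CA1 identity of hippocampal neurons and promotes astrocyte formation in the cortex, and Zbtb18 and Zbtb45 act in neural progenitors.

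Library totals ran from 28495399 to 32735785 counts in K4, from 27122207 to 33837450 in Ketamine and from 40863756 to 42731004 in Control. The share of counts in the 13 mitochondrially encoded protein genes was 10.8% ± 0.518 in K4, 11.4% ± 0.652 in Ketamine and 15.1% ± 3.68 in Control (SD, n = 3 each). Counts also leaned on transcript length differently in each library. For each gene the log2 CPM was taken as its deviation from the gene's mean over the 9 libraries. The slope of this deviation over log2 length was 0.00187, −0.0203 and −0.0103 per doubling in K4 and −0.0178, −0.0663 and −0.0609 in Ketamine. In Control it was 0.0600, 0.0434 and 0.0704. A slope near 0 means a length dependence near the average of the 9 libraries, and not its absence. Longer transcripts were thus counted relatively less in both drug groups than in Control. Neither the library totals nor these slopes overlapped between Control and the drug groups. Treatment and these properties of the libraries cannot be told apart. In a check of the tissue label, 8 neuron markers summed to 5719 to 6121 CPM in K4, 5872 to 5911 in Ketamine and 5523 to 6149 in Control. Of the 4 striatal neuron markers, Ppp1r1b was called higher in both drug groups and Rgs9 in K4. The 4 markers summed to 81.4 to 98.0 CPM in K4, 79.3 to 84.0 in Ketamine and 65.1 to 76.4 in Control. These sums did not overlap between drug groups and Control. At an unadjusted edgeR p below 0.05, 1 of the 4 was lower and 2 were higher in K4. In Ketamine 0 were lower and 1 higher at that threshold, and 2 of the 4 had a log2 fold change below 0. Their median log2 fold changes were 0.33 in K4 and 0.03 in Ketamine. Ppp1r1b differed by 0.45 in K4 and 0.31 in Ketamine on the log2 scale and Rgs9 by 0.84 in K4 (edgeR adjusted p = 0.0135, 0.029 and 0.0444), and only the K4 call of Ppp1r1b held with the offset for transcript length. Choroid plexus markers summed to at most 5.25 CPM in any library.

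Levels differed widely within the family. On the deposited FPKM scale, which counts reads per length and depth, 34 of the 39 genes averaged at least 1 over the 9 libraries, with a median of 3.47. Zbtb4 stood highest at 25.0 FPKM, followed by Zbtb7a at 16.0, Zbtb47 at 12.8, Zbtb16 at 11.9, Zbtb22 at 10.8 and Zbtb11 at 9.53. Zbtb20 ranked 35 of 39 with a mean of 0.975 FPKM, and only Zbtb7c (0.621), Zbtb42 (0.543), Zbtb8a (0.278) and Zbtb32 lay below it. This rank pools the 3 groups. In Control alone Zbtb20 averaged 1.94 FPKM, between Zbtb34 at 2.13 and Zbtb49 at 1.83. Zbtb32, a gene known from activated lymphocytes, had 2 counts in K4 replicate 3 and 0 in every other library and was not tested. The other 38 genes passed the filter on low counts. Zbtb8os fits the naming pattern but its human counterpart, archease, is a cofactor of the tRNA ligase and no zinc finger protein. For 8 of the 39 genes another gene of the count table overlaps the locus in RefSeq. The strand setting of the counting is not given in the sources used here, so reads of these pairs cannot be told apart with certainty.

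**Figure D1:**
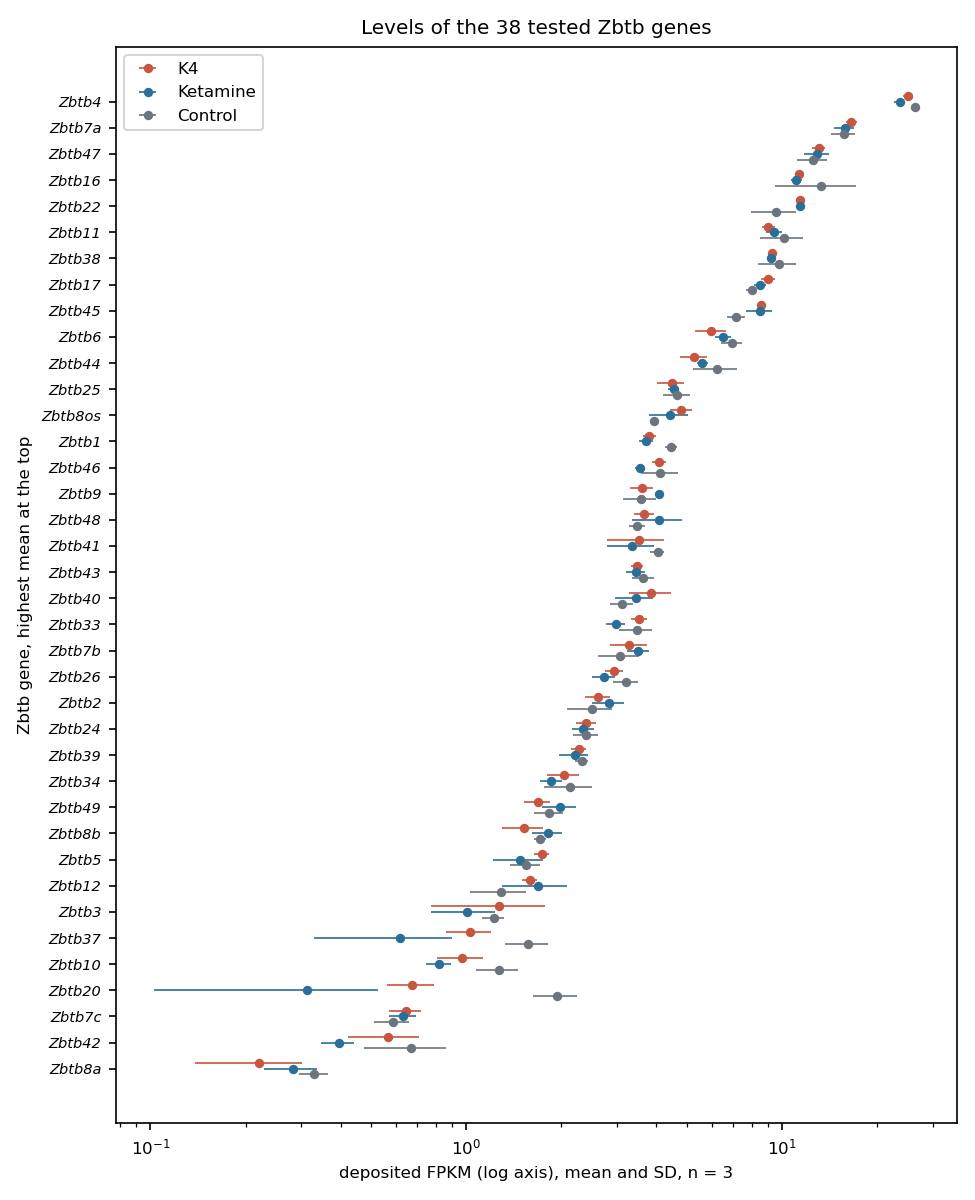
Deposited FPKM (log axis) of the 38 tested Zbtb genes, highest mean at the top, as group means with SD bars over 3 libraries for K4, Ketamine and Control. The groups lie close together for most genes, and Zbtb20 shows the widest gap, with 0.674 FPKM in K4, 0.313 in Ketamine and 1.94 in Control.

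Few of the 38 genes passed the test, and those that did were lower in the drug groups. Against Control, 3 fell in K4, namely Zbtb20, Zbtb41 and Zbtb44, and none rose (edgeR quasi-likelihood test, with p adjusted by Benjamini-Hochberg over 18047 genes and 0.05 as the threshold). Of all genes tested, 6.07% were called in that comparison, 3.8% lower and 2.27% higher, against 7.89% of the Zbtb genes lower. In Ketamine 6 fell against Control, namely Zbtb20, Zbtb41, Zbtb37, Zbtb10, Zbtb42 and Zbtb4, and again none rose. This was 15.8% of the Zbtb genes, against 16.7% of all genes called, 9.75% lower and 6.95% higher. At an unadjusted p below 0.05, 9 Zbtb genes were lower and 2 higher in K4, and 12 were lower and 2 higher in Ketamine. Of all 18047 genes tested, 4245 in K4 and 5640 in Ketamine had such a p in either direction. Among the Zbtb genes DESeq2 also called 0 higher in either drug group. The share called was thus near that of all genes, and both comparisons share the same 3 Control libraries.

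Between the drug groups no Zbtb gene was called, as none was among all genes (0%). At an unadjusted p below 0.05, 5 of the 38 differed between K4 and Ketamine, against 1648 of all 18047 genes tested. Of these 5 Zbtb genes 1 was lower and 4 higher in K4, and DESeq2 called 0 of the 38. Over the 3 groups together 5 were called, against 12.2% of all genes, namely Zbtb20, Zbtb41, Zbtb10, Zbtb37 and Zbtb44. The median log2 fold change of the 38 genes was −0.09 in K4 and −0.10 in Ketamine, against −0.00 in both for all genes. Of the 38, 25 were below 0 in K4 and 24 in Ketamine, where 50.7% and 50.3% of all genes were.

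**Figure D2:**
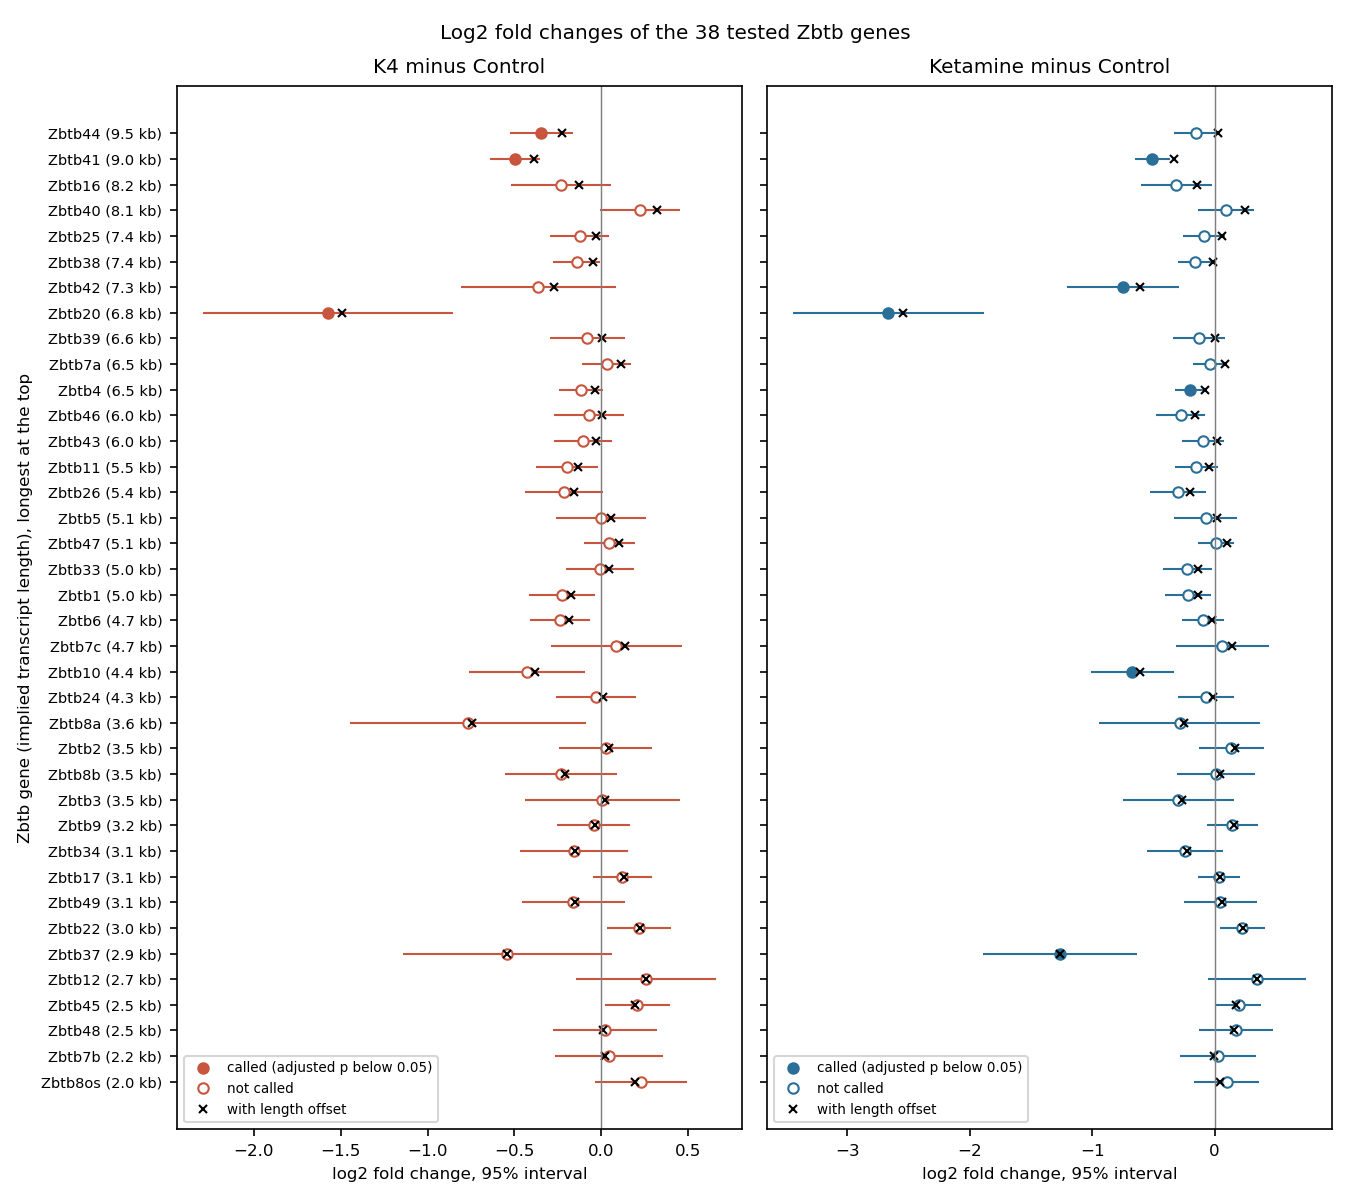
Log2 fold changes of the 38 tested Zbtb genes with 95% intervals, K4 minus Control on the left and Ketamine minus Control on the right, ordered by implied transcript length. Filled circles mark the 3 and 6 genes called, all below 0, and crosses give the value after an offset for transcript length, which moves most of the long genes toward 0.

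Zbtb20 showed the largest change of the family in both drug groups. Its normalised read counts were 5.25, 4.52 and 3.82 CPM in K4, 3.73, 1.21 and 1.39 CPM in Ketamine, and 13.9, 16.1 and 10.5 CPM in Control. Every K4 and Ketamine library lay below every Control library, and Ketamine replicate 1 lay near the K4 libraries while the other two were lower still. The means were 4.53 ± 0.719 CPM in K4, 2.11 ± 1.41 in Ketamine and 13.5 ± 2.8 in Control (SD, n = 3 each).

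The log2 fold change of Zbtb20 was −1.57 in K4 (SE 0.323, 95% interval −2.29 to −0.85, edgeR adjusted p = 0.0246) and −2.67 in Ketamine (SE 0.350, −3.45 to −1.89, adjusted p = 0.00143). The Ketamine call held without each library in turn and in all 10 other settings. The K4 call was lost without a filter on low counts and on unfiltered FPKM, and held in the other 8 settings and in 4 of the 9 fits that left out a library. It was lost without Control replicate 1, Control replicate 2 or any of the 3 K4 libraries, where the edgeR adjusted p lay between 0.0622 and 0.0914 and the log2 fold change of Zbtb20 between −1.69 and −1.43. The difference of Zbtb20 between K4 and Ketamine was 1.09 on the log2 scale (0.28 to 1.90, edgeR adjusted p = 0.432). Without Ketamine replicate 1 this difference was 1.80 with an adjusted p of 0.0215.

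As with markers of some other cell types given below, astrocyte markers moved with Zbtb20. Of 12 astrocyte markers, 3 fell and none rose in K4, and 7 fell and none rose in Ketamine. Their median log2 fold changes were −0.35 and −0.46. At an unadjusted p below 0.05 none was higher in either group, and DESeq2 called 0 higher. With an offset for differences between libraries in their trend over transcript length, 1 of the 12 fell in K4 and 3 in Ketamine. Their summed level was 3253 to 3656 CPM in K4, 3102 to 3279 in Ketamine and 3657 to 5747 in Control, and none was at 0 in any library.

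Slc1a2, the main glutamate transporter of astrocytes, had 252, 278 and 205 CPM in K4, 177, 143 and 139 CPM in Ketamine, and 413, 572 and 382 CPM in Control. All drug libraries lay below all Control libraries for Slc1a2, as for Zbtb20. The order of libraries by Slc1a2 matched that by Zbtb20 within Control but not within K4 or Ketamine. Slc1a2 fell by 0.89 in K4 and by 1.57 in Ketamine on the log2 scale (edgeR adjusted p = 0.0186 and 0.000642). In bulk tissue, fewer cells of a type and less RNA per cell cannot be told apart. The part of cell composition in the change of Zbtb20 was not tested.

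Among markers of other glial, endothelial and mural cells, those called were lower, apart from 1 oligodendrocyte marker in K4. Median log2 fold changes were −0.54 in K4 and −0.75 in Ketamine for oligodendrocyte precursors, and −0.38 and −0.67 for endothelial and mural cells. For microglia they were −0.25 and −0.37, and for oligodendrocytes 0.24 and −0.18. The astrocyte medians were thus not the lowest. Of 4 oligodendrocyte precursor markers, 2 fell in K4 and 4 in Ketamine, with summed levels of 148 to 170 CPM in K4, 136 to 145 in Ketamine and 187 to 289 in Control. Of 6 endothelial and mural markers 3 fell in each drug group, with sums of 214 to 246 CPM in K4, 171 to 201 in Ketamine and 258 to 378 in Control. Of 6 microglial markers 1 fell in K4 and 3 in Ketamine, with sums of 236 to 255 CPM in K4, 219 to 234 in Ketamine and 238 to 349 in Control. Of 7 oligodendrocyte markers 1 rose in K4, and edgeR and DESeq2 called 0 in Ketamine, with 0 at an unadjusted p below 0.05. Their sums were 2292 to 3098 CPM in K4, 1605 to 2076 in Ketamine and 1781 to 2920 in Control. None of these markers was at 0 in any library. With the length offset the precursor markers called lower were 1 in K4 and 2 in Ketamine, the endothelial and mural markers 1 and 3, and the microglial markers 0 and 2, and the K4 call of the oligodendrocyte marker was lost.

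Neuron markers, whose sums overlapped between the groups, included genes called in each direction. In Ketamine, Gad2, a GABA-synthesising enzyme, and Camk2a, a kinase of excitatory neurons, fell by 0.63 and by 0.52 on the log2 scale (edgeR adjusted p = 0.00175 and 0.0202). Tubb3, a neuronal tubulin, rose by 0.36 in Ketamine (edgeR adjusted p = 0.0171), a call lost with the length offset (adjusted p = 0.0578). In K4 edgeR called 0 of the 8, with 2 lower and 3 higher at an unadjusted p below 0.05, and DESeq2 called 1 lower and 1 higher. The part of any of these markers in the values of the Zbtb genes was not tested.

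The microRNA gene Mir568 is annotated inside the Zbtb20 locus in RefSeq (GRCr8), and the files count it as a gene of its own. It was singled out after its values were seen. Its mature sequence, shown because the host gene carries the largest change here, lies at chr11:70559921-70559940 on the minus strand, and the capitals mark the seed, bases 2 to 8.
rno-miR-568: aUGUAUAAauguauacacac

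Mir568 had 26, 22 and 20 raw counts in K4, 27, 25 and 28 in Ketamine, and 35, 41 and 35 in Control. After scaling for depth these were 0.706 ± 0.0566 CPM in K4, 0.842 ± 0.0426 in Ketamine and 0.926 ± 0.122 in Control. Ketamine and Control libraries overlapped, while K4 libraries lay just below Control. The log2 fold change of Mir568 was −0.39 in K4 (−1.0 to 0.23, edgeR adjusted p = 0.452) and −0.14 in Ketamine (−0.75 to 0.47, adjusted p = 0.784). Its interval in Ketamine did not reach that of Zbtb20, and in K4 the intervals of Mir568 and Zbtb20 overlapped. Whether the 2 genes differed in their change was not tested. The libraries were made with a poly(A) kit, so these counts do not measure the mature microRNA.

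**Figure D3:**
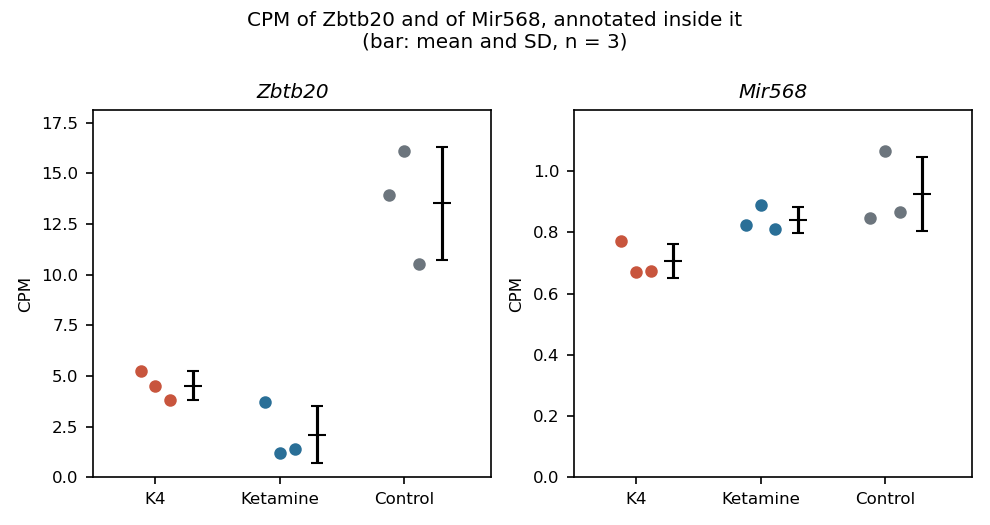
CPM of Zbtb20 (left) and of Mir568 (right) in each library of K4, Ketamine and Control, with mean and SD bars. Zbtb20 lies between 1.21 and 5.25 CPM in the drug groups and between 10.5 and 16.1 in Control, whereas Mir568 stays between 0.672 and 1.07 in all 9 libraries.

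Zbtb41 fell by like amounts in both drug groups. It had 26.7, 27.3 and 27.6 CPM in K4, 26.6, 26.9 and 27.4 CPM in Ketamine, and 40.4, 38.9 and 35.8 CPM in Control. The drug libraries all lay between 26.6 and 27.6 CPM and below all Control libraries. Zbtb41 fell by 0.50 in K4 (SE 0.067, 95% interval −0.64 to −0.35, edgeR adjusted p = 0.0029) and by 0.51 in Ketamine (SE 0.067, adjusted p = 0.00062) on the log2 scale.

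The difference of Zbtb41 between K4 and Ketamine was 0.01 (−0.13 to 0.16). Both calls against Control held without each library in turn. They were lost in the 3 fits on deposited FPKM, where Zbtb41 had 3.51 ± 0.717 in K4, 3.35 ± 0.568 in Ketamine and 4.03 ± 0.207 in Control. The transcript length implied by the ratio of counts to FPKM was 6.44, 9.45 and 8.52 kb in K4, 9.15, 6.94 and 9.02 kb in Ketamine, and 9.16, 8.89 and 9.13 kb in Control. The deposited FPKM of Zbtb41 thus rested on a shorter length in K4 replicate 1 and Ketamine replicate 2.

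Zbtb44 had the longest transcript of the family, 9.46 kb, and fell in K4. It had 48.7, 44.1 and 50.3 CPM in K4, 56.5, 51.2 and 55.5 CPM in Ketamine, and 66.9, 53.3 and 61.7 CPM in Control. K4 libraries lay below all Control libraries, and Ketamine libraries overlapped them. The log2 fold change of Zbtb44 was −0.35 in K4 (SE 0.084, −0.53 to −0.17, edgeR adjusted p = 0.0319) and −0.16 in Ketamine (adjusted p = 0.227).

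Zbtb44 differed by −0.19 between K4 and Ketamine (−0.37 to −0.01, edgeR adjusted p = 0.517). The K4 call of Zbtb44 held in 3 of 9 fits with a library left out, being lost without Control replicate 1 or 3, any K4 library or Ketamine replicate 3. It held in 4 of 10 other settings, being lost with the length offset with or without the replicate block, with the 2 groups compared alone and in the 3 fits on FPKM. With an offset for transcript length its log2 fold change was −0.23 in K4 (adjusted p = 0.123).

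**Figure D4:**
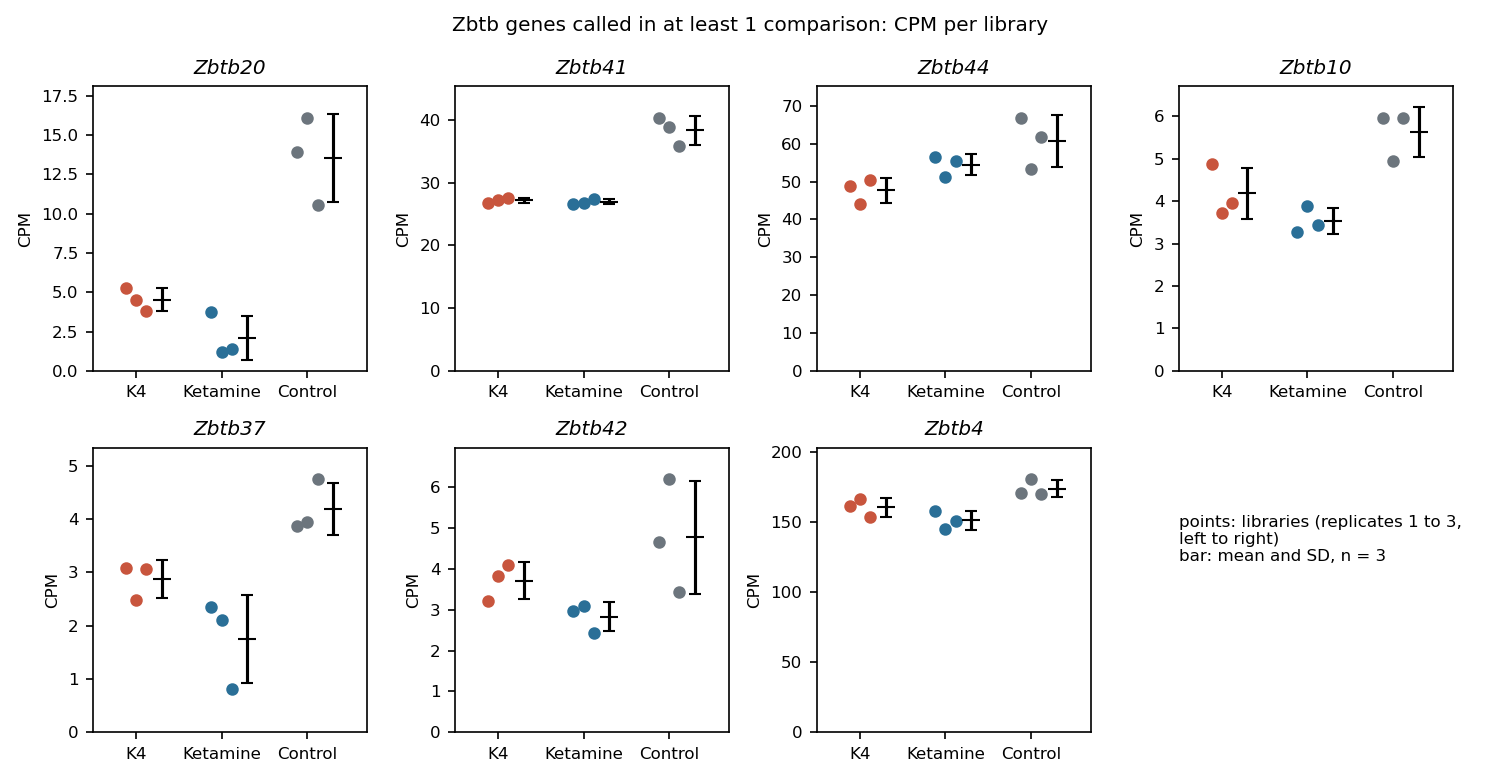
CPM of the 7 Zbtb genes called in at least 1 comparison, by library, for K4, Ketamine and Control, with mean and SD bars (n = 3). Zbtb41 shows tight drug groups near 27 CPM and Control libraries between 35.8 and 40.4 CPM, and Zbtb42 shows Control libraries spread from 3.44 to 6.19 CPM.

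Zbtb37, Zbtb10 and Zbtb42 are expressed at low levels and passed the test in Ketamine. Zbtb37 had 3.09, 2.47 and 3.07 CPM in K4, 2.35, 2.1 and 0.810 CPM in Ketamine, and 3.87, 3.95 and 4.75 CPM in Control. The 3 groups did not overlap, and Ketamine replicate 3 was the lowest library. Its log2 fold change was −1.26 in Ketamine (SE 0.291, −1.89 to −0.63, edgeR adjusted p = 0.0119), which held without each library in turn and in all 10 other settings, and −0.54 in K4 (adjusted p = 0.260). Zbtb37 is among the shorter members at 2.86 kb, and the length offset left its Ketamine value at −1.26 (adjusted p = 0.0211).

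Zbtb10, which in human cells represses genes of Sp transcription factors, had 4.87, 3.73 and 3.95 CPM in K4, 3.27, 3.88 and 3.44 CPM in Ketamine, and 5.97, 4.94 and 5.96 CPM in Control. Neither drug group overlapped Control. Zbtb10 fell by 0.67 in Ketamine on the log2 scale (SE 0.157, edgeR adjusted p = 0.0119), and its value in K4 was −0.43 (adjusted p = 0.118). The Ketamine call was lost without Control replicate 1 (adjusted p = 0.0518) and in the 3 fits on FPKM.

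Zbtb42, known from the nucleus of skeletal muscle fibres near the neuromuscular junction, had 3.21, 3.82 and 4.09 CPM in K4, 2.97, 3.10 and 2.43 CPM in Ketamine, and 4.66, 6.19 and 3.44 CPM in Control. Ketamine libraries lay below all Control libraries and all K4 libraries, and K4 overlapped Control. The log2 fold change of Zbtb42 was −0.75 in Ketamine (SE 0.212, edgeR adjusted p = 0.0286) and −0.36 in K4 (adjusted p = 0.314). The Ketamine call of Zbtb42 held in 4 of 9 fits with a library left out, being lost without Control replicate 1 or 2 or any Ketamine library. It held in 5 of 10 other settings and was lost with the length offset, with or without the replicate block, and in the 3 fits on FPKM.

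RefSeq (GRCr8) gives the 250 bases before the start of 34 of the 39 genes. The windows of Zbtb37 and Zbtb42 are shown because, among the called genes with an entry, these had the largest log2 fold changes in Ketamine. Capitals mark the GC box GGGCGG, on either strand, the site of Sp-type zinc finger factors. The Zbtb37 window is chr13:75836601-75836850 on the minus strand and holds 5 GC boxes and 1 match to TCCTGCNA, the methylation-independent site of Kaiso. The Zbtb42 window is chr6:137559372-137559621 on the plus strand and holds 4 GC boxes.
Zbtb37: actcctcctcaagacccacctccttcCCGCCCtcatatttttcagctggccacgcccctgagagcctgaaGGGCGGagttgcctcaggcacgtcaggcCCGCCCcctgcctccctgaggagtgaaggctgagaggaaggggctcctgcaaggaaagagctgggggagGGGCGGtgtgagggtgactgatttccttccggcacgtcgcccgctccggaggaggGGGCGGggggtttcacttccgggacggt
Zbtb42: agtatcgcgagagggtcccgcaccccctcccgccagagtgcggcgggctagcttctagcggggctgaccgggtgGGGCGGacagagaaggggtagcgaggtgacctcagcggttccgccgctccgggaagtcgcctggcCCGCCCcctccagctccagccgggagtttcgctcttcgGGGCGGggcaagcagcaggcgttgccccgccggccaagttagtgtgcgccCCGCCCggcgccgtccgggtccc

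Across the family the GC box was found in 19 of the 34 windows, or 55.9%, against 30.5% of all 33469 windows of the same length. The 5 called genes with a window held 5 GC boxes in Zbtb37, 4 in Zbtb42, 2 in Zbtb4, 2 in Zbtb44 and 0 in Zbtb41. The E-box CACGTG was found in 3 of the 34 windows (8.82%, against 5.59% of all), the Kaiso site TCCTGCNA in 3 (8.82%, against 4.27%), and the cyclic AMP response element TGACGTCA in 0 (against 1.59%). All were searched on both strands, and no motif contains another. The 34 windows belong to protein_coding genes. The 33469 windows outnumber the 22640 protein_coding genes of the count table, so they may include other kinds of genes or repeated entries. The shares therefore compare unmatched sets, and enrichment of any motif in the family was not tested. A match is a description of the sequence and not a bound site.

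Zbtb4, Zbtb33 and Zbtb38 are the members known to bind methylated DNA, and Zbtb33 is also called Kaiso. Zbtb4 had 161, 166 and 153 CPM in K4, 158, 145 and 151 CPM in Ketamine, and 170, 180 and 170 CPM in Control. All drug libraries lay below all Control libraries. Zbtb4 fell by 0.20 in Ketamine on the log2 scale (SE 0.058, edgeR adjusted p = 0.0326) and had −0.12 in K4 (adjusted p = 0.251). With the length offset the Ketamine value was −0.08 (adjusted p = 0.445), and the call was lost without Control replicate 1, K4 replicate 1 or Ketamine replicate 2 or 3. The Ketamine call of Zbtb4 held in 3 of 10 other settings, and besides the offset it was lost with no filter, with the 2 groups compared alone and in the 3 fits on FPKM.

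Zbtb33 averaged 17.3 ± 0.986 CPM in K4, 14.9 ± 1.12 in Ketamine and 17.4 ± 1.19 in Control, at −0.22 on the log2 scale in Ketamine (edgeR adjusted p = 0.115). Zbtb38 averaged 67.8 ± 2.82 CPM in K4, 66.8 ± 0.921 in Ketamine and 74.8 ± 5.25 in Control, with −0.16 in Ketamine (adjusted p = 0.0942). Neither passed the test.

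The other abundant members did not pass the test in any pair. Zbtb7a, a repressor of fetal globin genes in human red cell precursors, had 103, 111 and 106 CPM in K4, 105, 104 and 95.5 CPM in Ketamine, and 99.7, 102 and 112 CPM in Control. Its 3 groups overlapped, with log2 fold changes of 0.03 in K4 (−0.11 to 0.17) and −0.04 in Ketamine (−0.18 to 0.10). Its relatives Zbtb7b, which directs T cells to the helper lineage, and Zbtb7c lay between 0.03 and 0.09 in both drug groups.

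Zbtb47 had 64.7, 68.2 and 62.9 CPM in K4, 68.1, 61.0 and 62.1 CPM in Ketamine, and 59.8, 68.1 and 61.9 CPM in Control, and the groups overlapped. Its log2 fold changes were 0.05 in K4 (−0.10 to 0.19) and 0.01 in Ketamine (−0.14 to 0.16). With the offset for transcript length the upper ends of these intervals were 0.24 in K4 and 0.24 in Ketamine for Zbtb47, and 0.24 in K4 and 0.22 in Ketamine for Zbtb7a.

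Zbtb16, also called PLZF and a gene induced by glucocorticoids in human cells, spread widely within Control. It had 89.0, 99.0 and 94.4 CPM in K4, 93.7, 90.3 and 83.5 CPM in Ketamine, and 88.9, 104 and 139 CPM in Control. Control replicate 3 lay above every other library and Control replicate 1 fell within the range of the drug groups. The log2 fold changes of Zbtb16 were −0.23 in K4 (−0.52 to 0.05) and −0.31 in Ketamine (−0.60 to −0.02, edgeR adjusted p = 0.131).

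Zbtb22 ran against the direction of the called genes. It had 32.4, 33.2 and 33.4 CPM in K4, 33.5, 31.7 and 34.3 CPM in Ketamine, and 31.5, 24.6 and 29.0 CPM in Control. All drug libraries lay above all Control libraries, by a small margin to Control replicate 1. The log2 fold changes of Zbtb22 were 0.22 in K4 (edgeR adjusted p = 0.146) and 0.23 in Ketamine (adjusted p = 0.0881), and without Control replicate 1 it was called higher in Ketamine.

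Zbtb11, a gene mutated in a recessive intellectual disability in humans, had 48.9, 53.0 and 46.6 CPM in K4, 47.9, 52.7 and 53.1 CPM in Ketamine, and 56.9, 50.5 and 63.0 CPM in Control, with overlap in both comparisons. Its log2 fold change was −0.20 in K4 (edgeR adjusted p = 0.168) and −0.15 in Ketamine (adjusted p = 0.244). The gene Pcnp is annotated inside the Zbtb11 locus and was counted 4408 to 7299 times per library, so the count of Zbtb11 is uncertain.

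Zbtb46, known from classical dendritic cells and endothelium in mice, had 22.1, 25.6 and 24.5 CPM in K4, 20.4, 21.8 and 20.5 CPM in Ketamine, and 22.1, 26.1 and 27.8 CPM in Control. Ketamine libraries lay below all others, and K4 overlapped Control. The log2 fold change of Zbtb46 was −0.28 in Ketamine (edgeR adjusted p = 0.0573) and −0.07 in K4 (adjusted p = 0.694). Zbtb26 had 16.5, 14.7 and 14.7 CPM in K4, 15.1, 15.6 and 12.7 CPM in Ketamine, and 19.5, 17.6 and 16.3 CPM in Control. Ketamine lay below Control, and K4 replicate 1 overlapped it. The log2 fold change of Zbtb26 was −0.30 in Ketamine (adjusted p = 0.0672) and −0.22 in K4 (adjusted p = 0.227). With the replicate number as a block, edgeR called both Zbtb26 and Zbtb46 lower in Ketamine.

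Members with known roles in growth control, chromosome ends and DNA methylation gave small values. Zbtb17, also called Miz-1 and a partner of Myc, had log2 fold changes of 0.12 in K4 (−0.05 to 0.29) and 0.03 in Ketamine (−0.14 to 0.20). Zbtb48, which binds telomeres in human cells, had 0.02 in K4 and 0.18 in Ketamine. Zbtb24, mutated in a human syndrome of immunodeficiency with centromeric hypomethylation, had −0.03 in K4 and −0.07 in Ketamine.

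Zbtb45, which acts in glial differentiation of mouse progenitors, averaged 21.2 ± 0.622 CPM in K4, 21.1 ± 1.97 in Ketamine and 18.4 ± 0.908 in Control. K4 lay above Control without overlap, by 0.21 on the log2 scale (edgeR adjusted p = 0.167), and Ketamine overlapped it at 0.20 (adjusted p = 0.137). Zbtb1, needed for lymphocyte development in mice, averaged 18.6 ± 1.44 CPM in K4, 18.7 ± 1.48 in Ketamine and 21.8 ± 0.81 in Control. Both drug groups lay below Control, with log2 fold changes of −0.23 in K4 and −0.22 in Ketamine (adjusted p = 0.138 and 0.106). Zbtb8a, the scarcest tested member, averaged 0.717 ± 0.247 CPM in K4, 0.993 ± 0.191 in Ketamine and 1.22 ± 0.183 in Control, and its log2 fold change in K4 was −0.77 (−1.45 to −0.09, adjusted p = 0.161).

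Counting genes whose groups did not overlap, 10 of the 38 were lower in every K4 library than in every Control library and 3 were higher, against 14.2% and 13.3% of all genes tested. In Ketamine 12 were lower and 2 higher than in Control, against 18.1% and 16.9% of all genes. As shares of the 38 these were 26.3% lower and 7.89% higher in K4, and 31.6% lower and 5.26% higher in Ketamine. Between the drug groups 2 were lower in K4 than in Ketamine, Zbtb44 and Zbtb9, and 5 were higher, Zbtb46, Zbtb33, Zbtb37, Zbtb20 and Zbtb42, against 8.29% and 9.49% of all genes.

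Transcript length was taken from the ratio of each gene's counts to its FPKM. It ran from 1.99 kb for Zbtb8os to 9.46 kb for Zbtb44, with a median of 4.83 kb. Of the 38 tested Zbtb genes, 8 fell in decile 8 of all tested genes by length, 8 in decile 9 and 7 in decile 10, which holds the longest, and none in the shortest or the next. The family thus sits among the longer transcripts, which were lower in both drug groups across all genes. Of the 38 genes, 17 were at least 5 kb long, with a median log2 fold change of −0.12 in K4 and −0.16 in Ketamine, against −0.12 and −0.18 for the 3929 tested genes of that length. The 21 shorter Zbtb genes had medians of −0.01 in K4 and 0.03 in Ketamine, against 0.03 and 0.05 for the 14118 shorter genes. The family medians lay near those of all genes on the same side of 5 kb. The shorter set reaches down to lengths that no tested Zbtb gene has, so this split does not match the genes in length.

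Across the 38 genes the log2 fold change and the log2 length had a Pearson correlation of −0.33 and a Spearman correlation of −0.42 in K4, and −0.30 and −0.51 in Ketamine. These are descriptions over genes that share libraries and a length dependence, and carry no test. With an offset that removes differences between libraries in their linear trend over length, the family medians were −0.03 in K4 and −0.00 in Ketamine. The correlations shrank to −0.22 and −0.31 in K4 and to −0.18 and −0.29 in Ketamine.

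With that offset 2 Zbtb genes stayed called lower in K4, Zbtb20 and Zbtb41, against 2.62% of all genes called, 1.39% lower and 1.23% higher. In Ketamine 4 stayed called lower, Zbtb10, Zbtb20, Zbtb37 and Zbtb41, against 8.13% of all genes called, 4.76% lower and 3.37% higher. Over the 3 groups together 2 were called with the offset, Zbtb20 and Zbtb41, against 5.51% of all genes. The offset moved Zbtb20 to −1.49 in K4 and −2.54 in Ketamine (edgeR adjusted p = 0.0429 and 0.00355). It moved Zbtb41 to −0.39 in K4 and −0.33 in Ketamine (adjusted p = 0.0208 and 0.0148). Zbtb44, Zbtb4 and Zbtb42, with implied lengths of 9.46, 6.49 and 7.28 kb, were no longer called. The largest upward value with the offset was that of Zbtb12 in Ketamine, 0.34 (adjusted p = 0.283).

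**Figure D5:**
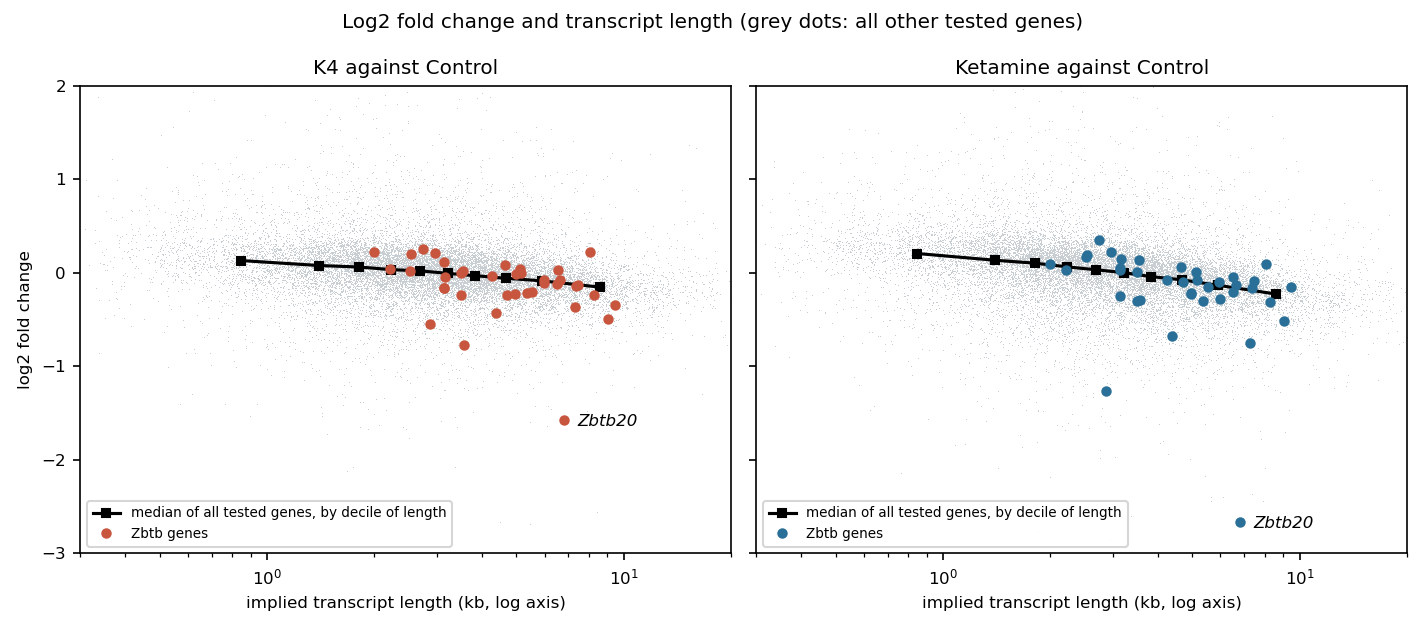
Log2 fold change over implied transcript length (kb, log axis) for K4 against Control (left) and Ketamine against Control (right), with the other tested genes that fall within the axes as grey dots, the Zbtb genes as coloured points and the median of all tested genes by decile of length as black squares. The black line falls with length in both panels and most Zbtb genes follow it, while Zbtb20 lies far below it at −1.57 in K4 and −2.67 in Ketamine.

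Genes of the family that carry other symbols did not pass the test. RefSeq lists 4 genes of the table as Zbtb genes under older names, and of them Zfp238, which is Zbtb18, was expressed far above every member counted here, with 69.2 ± 4.74 FPKM in K4, 73.2 ± 3.4 in Ketamine and 69.2 ± 9.0 in Control. Of these 4 genes edgeR and DESeq2 called 0 in any pair, and 0 had an unadjusted p below 0.05. Of 8 further BTB zinc finger genes, among them the B cell repressor Bcl6, both tools called 0. Mynn came nearest, at −0.30 in K4 (edgeR adjusted p = 0.0761) and −0.23 in Ketamine (adjusted p = 0.110), and was the gene with an unadjusted p below 0.05 in each.

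Corepressor and cullin partners of BTB proteins moved in both directions. Of 18 such genes, 3 fell and 1 rose in K4, and 5 fell and 3 rose in Ketamine, with median log2 fold changes of −0.06 and −0.13. Tbl1xr1, a subunit of the NCoR complex, had 117 ± 6.18 CPM in K4, 123 ± 6.03 in Ketamine and 149 ± 4.34 in Control. Its log2 fold change was −0.35 in K4 and −0.27 in Ketamine (edgeR adjusted p = 0.00947 and 0.00949). Ncor1, the corepressor itself, had 193 ± 8.29 CPM in K4, 169 ± 12.9 in Ketamine and 227 ± 2.91 in Control. Its log2 fold change was −0.23 in K4 and −0.43 in Ketamine (edgeR adjusted p = 0.0486 and 0.00133).

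Hdac3, the deacetylase bound to NCoR, had 57.6 ± 1.28 CPM in K4, 56.4 ± 1.81 in Ketamine and 47.1 ± 0.984 in Control. It rose by 0.29 in K4 and 0.26 in Ketamine (edgeR adjusted p = 0.0132 and 0.00766). Hdac4 fell by 0.31 in K4 and by 0.53 in Ketamine (adjusted p = 0.046 and 0.00165). The implied lengths were 8.67 kb for Tbl1xr1, 9.47 kb for Ncor1, 9.57 kb for Hdac4 and 1.88 kb for Hdac3, and with the length offset 1 partner fell and 1 rose in K4, and 2 fell and 1 rose in Ketamine.

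Transcription factors of cortical projection neurons, set beside the Zbtb genes as other nuclear regulators of this tissue, also included genes that fell. Of 15 such genes 5 fell in K4 and 6 in Ketamine, and edgeR called 0 higher, with 2 and 1 higher at an unadjusted p below 0.05 and 0 and 1 called higher by DESeq2. Cux2, an upper-layer factor, fell by 0.46 in K4 and by 0.42 in Ketamine (edgeR adjusted p = 0.00756 and 0.0035), and with the length offset 2 of the 15 fell in each drug group.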

How the data were processed

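For the 9 libraries the authors deposited a table of raw counts, and per the file headers also FPKM and TPM of each gene. The submitters' processing notes name genome build rn6, StringTie 2.1.3b, HISAT2 2.1.0, Trimmomatic and bcl2fastq 2.20.0. How reads were counted, and with which strand setting, is not given in the sources used here, whereas the kit was stranded and poly(A)-selecting, per the labels.

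Tests on counts used edgeR 4.0.16 (R 4.3.3) with TMM scaling and filterByExpr (minimum count 10, minimum total 15), which left 18047 of 37991 genes. A robust quasi-likelihood model took all 9 libraries together, with a common biological coefficient of variation of 10.2%. CPM are counts over TMM-scaled library size. Implied length is the ratio of counts to deposited FPKM, and TPM was used only for its median ratio to FPKM in each library. The length offset adds to the model each library's linear trend over log2 length of log2 CPM less the gene's mean. It thus removes differences between libraries in this trend, and not a trend that they share. Alternatives used upper quartile scaling, no filter, a replicate block, 2 groups alone, DESeq2 1.42.0, limma 3.58.1 on log2(FPKM + 0.1) or log2(FPKM + 1), and each library left out. The test was also tried on simulated counts, with means and spreads taken from these data and no length trend between libraries.

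Genes came from the deposited symbols, with 27 spreadsheet dates restored by gene ID, and all 39 Zbtb IDs were found in RefSeq. The members, lists and naming rule were chosen with earlier results of these data known. Full values are given for called genes, the 6 with the highest FPKM and the 3 uncalled with the smallest p over 3 groups. From each list up to 3 called genes with the smallest p were eligible. Other genes were named after their values were seen. Results of some list genes are not reported here.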

Additional observations from a re-analysis of the deposited data

How the results depend on the processing

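Leaving out each library in turn gave 1 to 3 Zbtb genes called in K4 against Control (174 to 1548 of all genes), 4 to 7 in Ketamine against Control (1177 to 3191), 0 to 1 in K4 against Ketamine (0 to 27) and 2 to 7 over 3 groups (894 to 2492). Without Control replicate 1, Ketamine against Control kept 3 of the 6 genes and added Zbtb16, Zbtb22 and Zbtb46. On FPKM with a pseudocount of 0.1, a pseudocount of 1, and no filter, the Zbtb genes called were 1, 1 and 0 in K4, 2, 2 and 2 in Ketamine, and 2, 2 and 1 over 3 groups, and 2 over 3 groups with the length offset, with or without the replicate block.

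For all genes, K4 against Control gave 472 with the length offset, 530 with block and offset, 452 with 2 groups alone, 1722 by DESeq2, and 564, 585 and 14 on FPKM. Ketamine against Control gave 1467 with the offset, 1532 with block and offset and 1555 on unfiltered FPKM. K4 against Ketamine gave 6 without a filter, 27 with 2 groups alone, 70 by DESeq2, 1, 2 and 2 on FPKM, and 1 with the replicate block, with or without the offset. Over 3 groups there were 995 with the offset, 1031 with block and offset and 590 on unfiltered FPKM. The cause of these shifts was not tested.

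Lower and higher calls over all genes split 563 to 527 in K4 and 1549 to 1587 in Ketamine under upper quartile scaling, against 686 to 409 and 1759 to 1254 under TMM, and 167 to 397 and 950 to 1601 on FPKM. The replicate block gave 3, 8 and 0 Zbtb genes in the 3 pairs and 5 over 3 groups. In their deviations from the group means, same-numbered libraries of different groups correlated at 0.0024 to 0.106. Differently numbered ones correlated at −0.157 to 0.0688, most of them below 0. The labels name no batch, and the main fit therefore has no replicate block. Whether libraries of the same number belong together was not tested. Of the values of single genes, 1185 stayed the same, 212 lost and 8 gained the call, 39 moved, and 0 reversed after a call. Staying the same means called in both fits with the same direction, or called in neither and within the standard error of the main value. Moved means called in neither and further off. Values called in neither fit were not compared by direction.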

Other observations

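The protein-coding genes on either side of Zbtb20 in RefSeq are Tigit and Gap43. Tigit, an immune checkpoint receptor, had 0 counts in all 9 libraries. Gap43, a growth cone protein of neurons, had 391, 410 and 379 CPM in K4, 415, 436 and 444 CPM in Ketamine, and 347, 307 and 355 CPM in Control, all drug libraries lying above all Control libraries. Its log2 fold change was 0.23 in K4 (edgeR adjusted p = 0.0649) and 0.36 in Ketamine (adjusted p = 0.00391), the opposite sign to that of Zbtb20.

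Zbtb11os1, a lncRNA whose symbol also begins with Zbtb and a number, lies inside Zbtb11 and was not counted among the 39 genes. It had 81, 76 and 79 raw counts in K4, 103, 87 and 122 in Ketamine, and 118, 117 and 98 in Control. Scaled for depth these ran from 2.32 to 2.67 CPM in K4, 3.10 to 3.53 in Ketamine and 2.42 to 3.04 in Control. The log2 fold change of Zbtb11os1 was −0.17 in K4 and 0.23 in Ketamine (edgeR adjusted p = 0.591 and 0.368).

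Depth limits the low members. Zbtb20 had 34 and 48 counts in 2 of the Ketamine libraries, and intervals of 95% for Zbtb8a spanned −1.45 to −0.09 in K4 and −0.94 to 0.37 in Ketamine.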
